A study of Caenorhabditis elegans with 2 samples.

Results

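The genes described here are the 5 that encode the MuvB core in Caenorhabditis elegans, lin-54, lin-9, lin-37, lin-52 and lin-53. They were taken by name from the Ensembl annotation of assembly WBcel235, out of 19973 protein-coding genes on the 6 nuclear chromosomes, and every LIN-38 summit inside them or within 5 kb of them was collected. The data are chromatin immunoprecipitation followed by sequencing (ChIP-seq) from 2 biological replicates of 1 group. Both samples are whole animals of strain RW12236, in which a CRISPR insertion at the lin-38 locus on its own chromosome adds TY1, EGFP and 3xFLAG tags to LIN-38, collected as L4 larvae 48 hours after growth was synchronised by starving hatched L1 larvae. Chromatin was recovered with an antibody to GFP. Every cell type of the worm is mixed in such a sample. All animals carry the tag, and control libraries were not analysed here. In ce11 coordinates, lin-54 lies at 13241044 to 13243401 on the plus strand of chromosome IV. Next come 3 genes on the minus strand of chromosome III, lin-9 at 8900237 to 8904131, lin-37 at 7070890 to 7072552 and lin-52 at 9824083 to 9824750. The fifth, lin-53, is on the minus strand of chromosome I at 9618196 to 9619760.

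MuvB is the invariant core of DREAM, a complex that joins an Rb-family pocket protein and an E2F-DP pair to target promoters and keeps cell cycle genes repressed in non-dividing cells. LIN-54 contacts DNA through cysteine-rich domains that in mammals recognise the cell cycle genes homology region (CHR), and LIN-52 bridges the core to the pocket protein. LIN-53, the worm RbAp46/48, is a WD-repeat histone-binding protein that also serves in other chromatin complexes. In the worm these genes belong to the synMuv B class, and LIN-38 to the synMuv A class that acts redundantly with it in restraining vulval fates. Many worm messages receive a spliced leader, so an annotated 5′ end may be a splice acceptor that lies downstream of where transcription starts, and closely spaced genes on 1 strand are often transcribed together.

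The DNA under the tallest LIN-38 summit near lin-54, lin-9, lin-37 and lin-52 is shown first, because position and letters differ between these loci. Each is up to 300 bases centred on the summit, cut to the stretch between annotated genes and written 5′ to 3′ on the strand of the MuvB gene. Capitals mark the CHR letters TTTGAA or TTCGAA and the E2F-like letters, which are TTCCCGC as well as the variants with a different centre, namely TTGGCGC and, as the last of them, TTCGCGC, on either strand. Reverse complements therefore also appear, while TTCGAA is its own. The first runs over chrIV:13240652-13240840 (plus strand) with the summit at base 40, the second over chrIII:8904132-8904428 (minus strand) with the summit at base 150. The third, chrIII:7074022-7074248 (minus strand), has the summit at base 77 and lies upstream of ZK418.5, the gene that precedes lin-37. The fourth, chrIII:9826021-9826320 (minus strand), has it at base 150 and lies upstream of ZK632.9, the gene that precedes lin-52. Both of these summits are nearer to the 3′ end of the gene before, ZK418.13 or ZK632.10, than to the 5′ end of ZK418.5 or ZK632.9. All are from the RefSeq copy of the WBcel235 genome.
lin-54 promoter: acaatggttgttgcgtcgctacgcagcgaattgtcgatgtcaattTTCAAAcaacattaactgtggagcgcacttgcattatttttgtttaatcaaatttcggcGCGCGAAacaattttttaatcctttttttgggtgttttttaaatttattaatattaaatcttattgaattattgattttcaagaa
lin-9 promoter: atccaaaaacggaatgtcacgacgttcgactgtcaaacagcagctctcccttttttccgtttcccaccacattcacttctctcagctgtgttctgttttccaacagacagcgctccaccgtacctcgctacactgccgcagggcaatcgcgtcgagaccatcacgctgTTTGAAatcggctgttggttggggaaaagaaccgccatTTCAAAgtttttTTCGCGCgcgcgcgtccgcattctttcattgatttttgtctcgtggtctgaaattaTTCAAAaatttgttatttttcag
upstream of ZK418.5 and lin-37: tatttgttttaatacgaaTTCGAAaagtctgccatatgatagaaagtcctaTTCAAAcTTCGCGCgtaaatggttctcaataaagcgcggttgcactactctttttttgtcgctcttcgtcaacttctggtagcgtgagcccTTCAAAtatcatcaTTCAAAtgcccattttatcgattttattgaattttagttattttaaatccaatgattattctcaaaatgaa
upstream of ZK632.9 and lin-52: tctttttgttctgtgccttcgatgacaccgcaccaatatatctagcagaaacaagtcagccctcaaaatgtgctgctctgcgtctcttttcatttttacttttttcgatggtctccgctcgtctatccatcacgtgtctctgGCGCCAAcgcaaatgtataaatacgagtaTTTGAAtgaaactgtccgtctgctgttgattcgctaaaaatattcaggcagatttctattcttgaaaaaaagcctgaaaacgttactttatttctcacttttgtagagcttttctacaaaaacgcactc

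The gaps between lin-37 or lin-52 and the gene before it are short, and are shown whole. The stretch between ZK418.5 and lin-37 (chrIII:7072553-7072612, minus strand, 60 bases) and that between ZK632.9 and lin-52 (chrIII:9824751-9824876, minus strand, 126 bases) hold none of those letters. Here capitals are not used.
ZK418.5 to lin-37: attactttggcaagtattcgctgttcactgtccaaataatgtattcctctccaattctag
ZK632.9 to lin-52: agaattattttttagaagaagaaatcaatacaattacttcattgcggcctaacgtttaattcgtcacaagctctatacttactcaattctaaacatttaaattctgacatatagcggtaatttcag
Both end in AG directly before the annotated 5′ end, as a splice acceptor does, and so does the lin-9 stretch above. The last 6 bases are TTTCAG at lin-9 and lin-52, TTCTAG at lin-37 and AGTTAT at lin-54. Those before lin-53 are not given here. Over the 29314 distinct 5′ ends of protein-coding genes, 26.4% follow AG and 11.6% follow TTTCAG. This comparison was chosen after the sequences had been seen.

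All 5 genes had a LIN-38 summit in their promoter window, from 500 bp upstream to 200 bp downstream of an annotated 5′ end, in the conservative list made from both samples. That list holds 5405 nuclear peaks, and 14.6% of all protein-coding genes have such a summit in it. Height and position divided the genes. At lin-54, lin-53 and lin-9 the summit lay upstream of the 5′ end, between genes, with signal values of 12924, 2020 and 1296. At lin-37 and lin-52 it lay just inside the first coding exon, with 177 and 122. The signal value is a height that the authors gave each peak, on a scale the labels do not state, and serves here only to rank and describe peaks of a list. The median over the 5 genes was 1296, beside 336 over the 2910 genes with a promoter peak. Among those genes lin-54 stood at the 99.8th percentile, lin-53 at the 89.5th, lin-9 at the 83.4th, lin-37 at the 25.5th and lin-52 at the 8.32nd. The place of the summit also differed. Of the 2910 genes, 86.3% had the tallest promoter summit upstream of the 5′ end and 13.7% downstream of it.

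**Figure D1:**
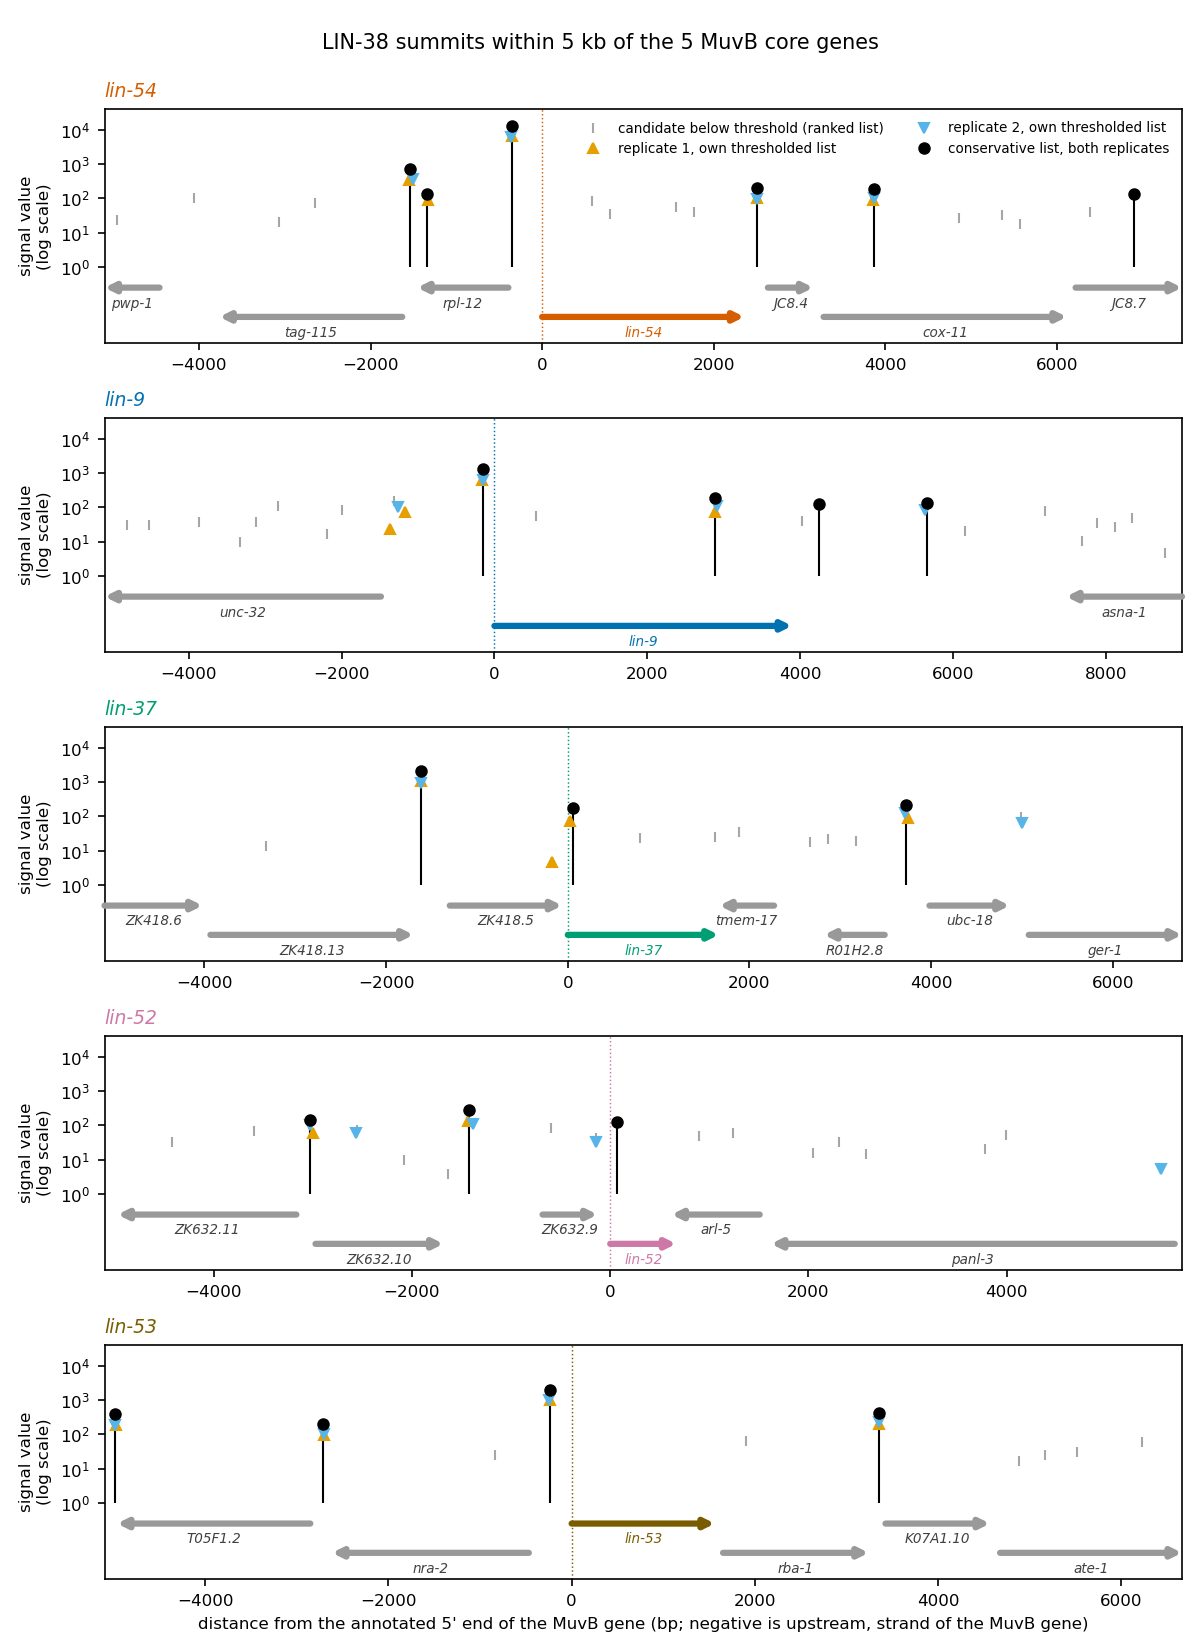
LIN-38 summits around each MuvB gene, by distance from its annotated 5′ end (x axis, bp, upstream to the left) and signal value (y axis, log scale). Black circles on stems are the conservative list, triangles are each replicate's own thresholded list, grey ticks are candidates below the threshold in the ranked list, and arrows are protein-coding genes. The tallest summit is in the promoter window of lin-54, lin-9 and lin-53, and upstream of the preceding gene at lin-37 and lin-52. At lin-54 and lin-53 that summit is also in the promoter window of rpl-12 or nra-2.

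lin-54, the DNA-binding subunit, had the fourth tallest nuclear peak of the whole list. It ran from 13240228 to 13240966, and the summit at 13240691 was 353 bp upstream of lin-54. Replicate 1 gave it a signal value of 6698 and replicate 2 one of 6246, and it ranked 4 in both replicates' lists. The replicates were almost level there, with a log2 ratio of 0.10 for replicate 1 over replicate 2, where the SD of that ratio was 0.40 over the 5342 peaks of the list that both replicates measured. The same summit was 40 bp upstream of rpl-12, a large-subunit ribosomal protein gene transcribed in the opposite direction, and 392 bp separate both genes. The files cannot assign the peak to either gene. When each summit was given only to its nearest 5′ end, it went to rpl-12.

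Smaller peaks flanked lin-54 on both sides. One interval from 13239272 to 13239963 held a pair of summits, a taller one 89 bp upstream of tag-115 (717 in the conservative list, 342 in replicate 1 and 374 in replicate 2) and a lower one in a coding exon of rpl-12 (136). Replicate 1 also had both summits there, the lower one at 88.5, while replicate 2 had 1 summit. Downstream of lin-54, a summit 130 bp upstream of JC8.4 had a value of 205 and another in an intron of cox-11, a cytochrome c oxidase assembly gene, had 188, each in both replicates' lists. A summit in an intron of JC8.7 (134) was in neither. Inside lin-54 itself the conservative list had no summit. The other thresholded list of the series had a pair in its coding exons, at 13241628 and 13241835, with values of 83.0 and 36.0.

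lin-9, a core subunit that vertebrate cells also require for activation of mitotic genes, had its promoter peak upstream of the 5′ end and in no other gene's promoter window. The summit at 8904279, in a peak from 8904115 to 8904460, was 148 bp upstream of lin-9. Signal values were 652 and 648 in replicates 1 and 2, a log2 ratio of 0.01, and the summits of the replicates were 19 bp apart. The next protein-coding gene upstream, unc-32, starts 1483 bp away on the other strand. Of the 2910 genes with a promoter peak, 38.0% shared their tallest one with another gene's window, as lin-54 and lin-53 did and lin-9, lin-37 and lin-52 did not.

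Between lin-9 and unc-32 lay a site on which the lists differed. In the ranked list behind the conservative one, a candidate with its summit at 8905438, 1307 bp upstream of lin-9, had a signal value of 154, but its −log10 global irreproducible discovery rate (IDR) was only 0.20. The IDR measures how well a peak repeats between a pair of inputs. Thresholded lists kept peaks whose −log10 global IDR was at least 2.00 after rounding. Yet the other series list held this site, with the same value, and each replicate's own list held peaks over it, at 75.1 and 23.5 in replicate 1 and 105 in replicate 2. The lower summit of replicate 1 (23.5) was in a noncoding exon of ZK637.19, and the other summits of the site were between genes. The candidate at 8905438 was the strongest near any of the 5 genes that the conservative list left out. Further conservative summits were in an intron of lin-9 (190, with 72.2 in replicate 1 and 113 in replicate 2) and downstream of the gene at 8899883 (128, in neither replicate's own list) and 8898474 (135, only in replicate 2's).

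lin-53, the histone-binding subunit, had a peak from 9619825 to 9620167 in the 466 bp between it and nra-2, which runs in the opposite direction. Its summit at 9619996 was almost midway, 236 bp upstream of lin-53 and 231 bp upstream of nra-2. Replicate 1 had a signal value of 1030 and replicate 2 one of 1000, a log2 ratio of 0.04. The next protein-coding gene downstream is rba-1, which encodes a paralog of LIN-53 and starts 88 bp beyond it on the same strand. rba-1 had no summit in its own promoter window, in the conservative list or among the candidates of the ranked list behind it. Of the other summits near lin-53, one was 70 bp upstream of K07A1.10 (432), one 142 bp upstream of T05F1.2 (203) and one, 4988 bp away, in no promoter window (401). All 4 summits near lin-53 were in both replicates' own lists, which held for the summits of none of the other 4 loci.

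lin-37, which encodes a subunit that repression by mammalian DREAM depends on, had a low peak at its own start and a tall one before the preceding gene. The low peak ran from 7072303 to 7072678 with its summit at 7072491, 61 bp inside lin-37. It measured 73.9 in replicate 1 and 96.2 in replicate 2 by signal value, a log2 ratio of -0.38, with the summits 48 bp apart. Replicate 1's own list held it, with a second entry of only 4.79 beside it, 178 bp upstream of lin-37. Replicate 2's did not, although its value there was the higher one. The −log10 global IDR of that candidate was 0.15, and the values of the 2 inputs to that comparison, both made from replicate 2, were 59.0 and 11.1. The tall peak, from 7073998 to 7074328, had its summit at 7074172, 321 bp upstream of ZK418.5 and 1620 bp upstream of lin-37. Counted from the 5′ end of lin-37, the summit was at -1620 bp and ZK418.13, on the same strand, ended at -1697 bp. The peak was thus nearer to that 3′ end than to the 5′ end of ZK418.5. The tall peak reached 1061 in replicate 1 and 972 in replicate 2, with the summit at the same base in both. It was 14.4 times as high as the peak at lin-37 in replicate 1 and 10.1 times in replicate 2. ZK418.5 and lin-37 are on the same strand, 60 bp apart. On the other side of lin-37, a summit between R01H2.8 and the ubiquitin-conjugating enzyme gene ubc-18 had a value of 219 and was in both replicates' lists.

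lin-52, which encodes the small subunit that meets the pocket protein, also had a low peak at its start and a taller one before the preceding gene. Unlike at lin-37, the taller one was in no promoter window. Its peak ran from 9824493 to 9824868 with the summit at 9824681, 69 bp inside the gene. Replicate 1 had a candidate of 72.6 over it, 53 bp upstream of lin-52, with a −log10 global IDR of 1.95, just under the threshold. Replicate 2 had one of 67.1, 68 bp inside lin-52, with a −log10 global IDR of 0.15 and input values of 48.4 and 9.08. The entry that did pass the threshold in replicate 2 was a lower one beside it, with a value of 33.5, 139 bp upstream of lin-52 in the 3′ UTR of ZK632.9. The other series list likewise had a second entry there, 142 bp upstream of lin-52 (42.3). The summits matched to the peak were 121 bp apart between the replicates, the widest gap of the 5 promoter peaks. A taller summit at 9826171 was 739 bp upstream of ZK632.9 and outside any promoter window. Counted from the 5′ end of lin-52, the summit was at -1421 bp and ZK632.10, on the same strand, ended at -1681 bp, nearer than ZK632.9 starts. The taller summit had a value of 278 in the conservative list, 135 in replicate 1 and 108 in replicate 2. The replicate values are 1.86 and 1.61 times those at lin-52. ZK632.9 and lin-52 are on 1 strand, 126 bp apart. A further summit lay between ZK632.10 and ZK632.11 (147). Of all protein-coding genes, 12.2% have their nearest upstream neighbour on the same strand within 200 bp, as lin-37 and lin-52 have.

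**Figure D2:**
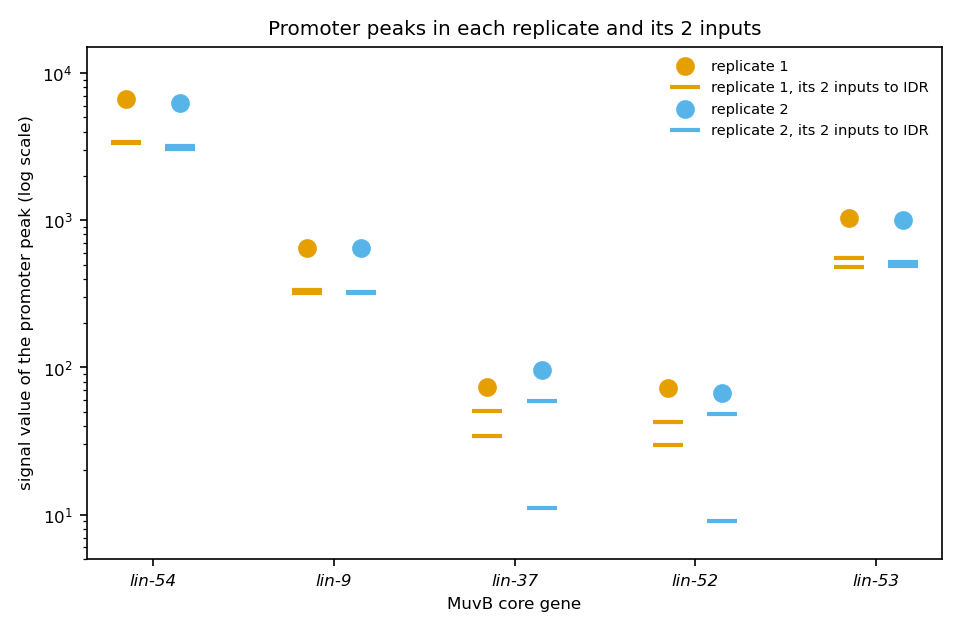
Signal value (y axis, log scale) of the promoter peak of each MuvB gene in replicate 1 and replicate 2 (circles) and in the 2 inputs that each replicate's own ranked list compared (bars). The bars almost coincide at lin-54, lin-9 and lin-53, and lie far apart in replicate 2 at lin-37 (59.0 and 11.1) and lin-52 (48.4 and 9.08).

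The replicates' own lists were then compared gene by gene. In the thresholded list of replicate 1, 4 of the 5 genes had a promoter summit (13.2% of all genes), and lin-52 had none. In that of replicate 2 it was again 4 (13.1%), and lin-37 had none. The other thresholded list of the series had all 5 (14.7%). The conservative promoter peaks of lin-54, lin-9 and lin-53 overlapped a peak of both replicates' own lists, which 11.5% of all genes show. In the ranked lists, where most entries are below the threshold, all 5 genes had a promoter candidate, as did 34.8% of all genes in the list behind the conservative one, 36.4% in replicate 1's and 36.8% in replicate 2's. The peaks at lin-37 and lin-52 were both 376 bp wide, the commonest width in the conservative list. It is shared by 49.3% of the list's peaks, whose median signal value was 134, against 439 for peaks of other widths. The peaks at lin-54, lin-9 and lin-53 were 739, 346 and 343 bp wide.

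**Figure D3:**
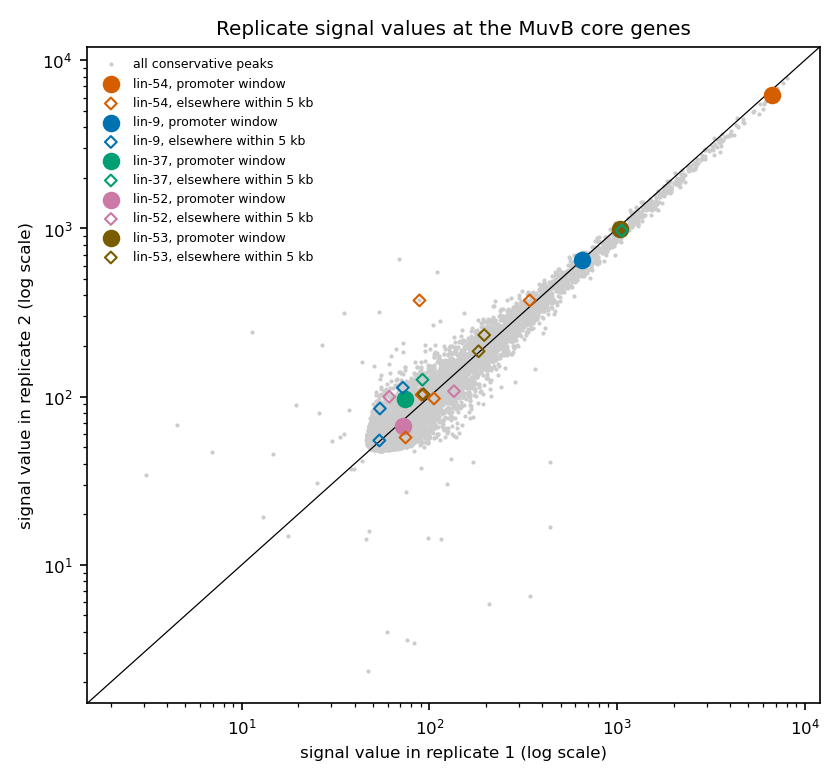
Signal values in replicate 1 (x axis) and replicate 2 (y axis), both on log scales, for every conservative peak measured in both (grey) and for the 20 within 5 kb of a MuvB gene (filled circles in its promoter window, open diamonds elsewhere). The line marks equal values. The promoter peaks of lin-54, lin-53 and lin-9 sit on it, and the diamond farthest from it is the lower of the 2 summits near tag-115, for which replicate 2 had 1 summit only.

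Within 5 kb of the 5 genes the conservative list held 20 summits, 6 at lin-54, 4 each at lin-9 and lin-53, and 3 each at lin-37 and lin-52. At least 1 summit was found near 40.7% of all protein-coding genes, and at least 3 near 12.9%. The median was 4 summits for the 5 genes and 0 for all genes. The 5 genes had 2 to 7 other protein-coding genes within the same distance (median 5, against 3 for all genes), and over the 17745 genes with that many neighbours the median number of summits was also 0. Of the 20 summits, 14 were between genes, 3 in coding exons and 3 in introns. By promoter window, 5 of the 20 were in that of a MuvB gene, 10 in that of a neighbouring gene only and 5 in none. Both replicates' own lists held 15 of the 20, replicate 1's alone held 1, replicate 2's alone held 2 and neither held 2. An overlap of at least 1 bp counted here. The 15 therefore include the lower summit near tag-115, over which replicate 2 had only the peak of the taller one. The lin-52 promoter peak counted as held by replicate 2 through its lower entry (33.5). Over all conservative peaks 64.6% were in both lists. The log2 ratios of the replicates ran from -0.71 to 0.38 at 19 of the 20 summits. At the lower summit near tag-115 it was -2.08, where replicate 2's value is that of its only summit, which also stands for the taller one.

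**Figure D4:**
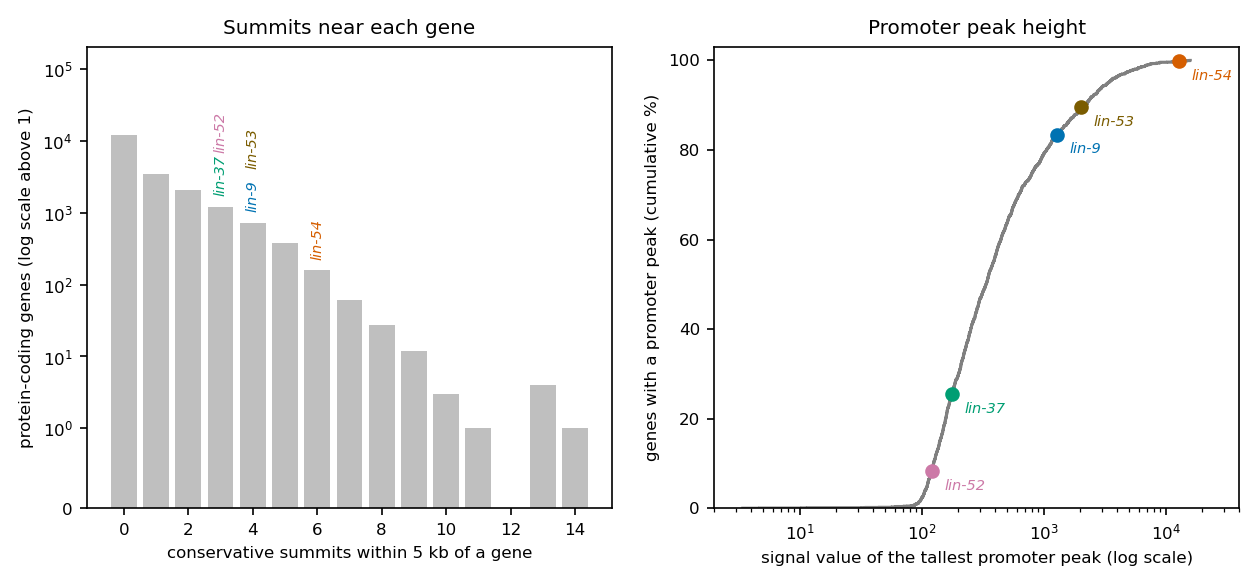
Left, number of protein-coding genes (y axis, log scale above 1) by the number of conservative summits within 5 kb (x axis), with the bars of the MuvB genes named. Right, cumulative percentage of the 2910 genes with a promoter peak (y axis) by the signal value of the tallest one (x axis, log scale), on which the 5 MuvB genes spread from the 8.32nd to the 99.8th percentile.

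Entries of the ranked lists were spread over all 5 loci. In the list behind the conservative one, entries above and below the threshold within 5 kb had a median of 17 for the 5 genes. That median was 3 over all protein-coding genes, and 4 over the 17745 with 2 to 7 other genes within 5 kb. The same list had 58 candidates below the threshold within 5 kb of the 5 genes, with values from 3.92 to 154. Replicate 1's ranked list had 53 and replicate 2's had 60. The strongest one near lin-9 was the site described above, and the strongest near each of the other genes was between genes for lin-54 (105, −log10 global IDR 1.55), between genes for lin-37 (93.1), in an intron of ZK632.9 for lin-52 (82.4) and in a coding exon of rba-1 for lin-53 (63.1). Replicate 2's own list also held 1 site near lin-37 (65.0) and 1 near lin-52 (58.6) that overlapped no conservative peak.

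The letters under the summits were compared last, over 300 bp centred on each promoter summit and over both strands. CHR letters were in 4 of the 5 windows, all but that of lin-37, where 64.1% of all conservative summits and 64.9% of windows of that length at 5′ ends hold them. E2F-like letters were in 3 of the 5, at lin-54, lin-9 and lin-53, against 16.9% of conservative summits and 6.06% of windows at 5′ ends. Of these, TTCGCGC was at lin-54 and lin-9, TTGGCGC at lin-54 and TTCCCGC at lin-53. The TTGGCGC match at lin-54 is not in the stretch printed above, because it lies on the rpl-12 side that was cut away. The windows of lin-37 and lin-52 had none, and the taller peaks upstream of ZK418.5 and ZK632.9 had 1 match each, TTCGCGC and TTGGCGC as marked in the sequences above. Low summits at 8899883 (128), 7068827 (219) and 9622471 (203) also had 1 match each. The remaining summits within 5 kb had none, among them those at 13239503 (717), 9616403 (432) and 9624748 (401). Matches were thus not limited to tall peaks. The GAGAGA repeat was at lin-9 only, and in 29.0% of conservative summits and 19.7% of windows at 5′ ends. GC content had a median of 39.3% in the 5 windows and 37.7% over all conservative summits. In 100 bp windows CHR letters were in 3 of the 5, beside 26.5% of conservative summits and 28.7% of windows at 5′ ends. E2F-like letters were in 0 of the 5 at that length, beside 10.2% and 1.75%. These are matches of letters and not measured sites.

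The other genes of DREAM and a set of chromatin genes outside DREAM were listed for comparison. Of all protein-coding genes, 14.6% had a promoter peak in the conservative list, and 11.5% had one that overlapped both replicates' lists. The Rb homologue gene lin-35 (4791) and the E2F gene efl-1 (6668) had tall promoter peaks in both replicates' lists, and the DP gene dpl-1 had a low one in neither (124, with 57.3 in replicate 1 and 65.6 in replicate 2). The lin-35 peak was also in the promoter window of vps-51. Of 9 genes listed for chromatin complexes outside DREAM, such as NuRD and CAF-1, with the LIN-53 paralog gene rba-1 among them, 4 had a promoter peak. These were chaf-2 of the CAF-1 histone chaperone (2304), the Mi-2 homologue gene chd-3 (367), the zinc-finger gene mep-1 (322) and dcp-66 (139), of which the first 3 were in both replicates' lists. The chaf-2 peak was also in the promoter window of Y71G12B.30. The Mi-2 gene let-418, the histone deacetylase gene hda-1, lin-40, rba-1 and chaf-1 had none in the conservative list. In the ranked list behind it, let-418 (83.8), hda-1 (42.9) and lin-40 (54.7) had a promoter candidate, as did 34.8% of all genes. There rba-1 and chaf-1 had no candidate.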

How the data were processed

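The authors deposited 8 peak lists on ce11, as the labels and the output notes record: a ranked and a thresholded list for each sample, made from that sample alone, and 4 lists made from both. Each peak carries the authors' signal value, a score that scales its IDR (at least 830 in every thresholded list) and, where the list is ranked, a −log10 global IDR. Which aligner and peak caller were used is not given in the sources used here. The lists hold no read counts, so depth is unknown. Peaks and positions were analysed with Python 3.11.15. The 26 mitochondrial peaks of the conservative list were left out. Genes came from Ensembl release 115 on WBcel235, the assembly of ce11. Neighbouring genes and promoter windows are those of protein-coding genes only. A replicate's value is that of the peak in its own ranked list that overlaps by at least 1 bp and has the nearest summit. The counting was tested on planted peaks. With 1 group of 2 samples no test was made. The members, comparison genes, motifs and windows were chosen with earlier results of these data known. Genes were named by rule: the 5 members, genes whose 5′ end is nearest to a conservative summit within 5 kb or whose promoter window holds it, and the genes listed for comparison. Genes named outside the rule were unc-32, ZK418.13, ZK637.19, vps-51 and Y71G12B.30, and sites from other lists were chosen after their values were seen. By the rule, asna-1 was nearest to the summit at 8898474 and rps-19 to that at 9624748. No base sequence is shown for lin-53.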

Additional observations from a re-analysis of the deposited data

How the results depend on the processing

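The count of 5 promoter peaks depended on how a promoter is defined. In a narrow window, 200 bp upstream to 100 bp downstream, 3 genes had a peak and lin-54 and lin-53 had none. With each summit given to the nearest 5′ end only, 3 had one, and those of lin-54 and lin-53 went to rpl-12 and nra-2. In the top 50% of the conservative list by signal value, 3 had one, and lin-37 and lin-52 had none. A wide window (1000 bp upstream to 500 bp downstream), the other series list and any base of the peak in the window each gave 5. Without replicate 1 or without replicate 2 the count was 4. The number of promoter peaks that overlap both replicates' peaks was 3, also with an overlap of 50% of both peaks, and 5 with the ranked lists, most entries of which are below the threshold. The 20 summits within 5 kb became 15 within 2 kb, 24 in the other series list, and 19 to 20 with 1 replicate's list. Read depth is unknown, so how far it limits the low peaks at lin-37 and lin-52 was not tested.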
